A study of Bos taurus with 15 samples.

Results

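Aurora kinases and the chromosomal passenger complex were described by the transcripts of the genes AURKA, AURKB, AURKC, INCENP, BIRC5 and CDCA8, chosen by name. Of these 6 genes, 4 were matched by gene name in a table of 24616 genes: AURKA, AURKB, BIRC5 and CDCA8. AURKC and INCENP were not analysed here. All 4 matched genes passed the filter on low counts that left 8441 genes for testing. RNA sequencing was done on bovine (Bos taurus) oocytes, the egg cells of the ovary, to ask what a colder coolant and a stronger cryoprotectant do to the mRNA. The 15 libraries formed 5 groups of 3. One group was fresh oocytes. The others were oocytes vitrified, that is cooled to a glass without ice, in liquid helium with 5.6 M or 6.6 M cryoprotective agent, or in liquid nitrogen with 5.6 M or 6.6 M. By the labels' protocols, in vitro maturation of oocytes of all groups lasted 22 to 24 h at 38.5 °C, after which hyaluronidase was used to strip the cumulus cells, whereas the series title calls them immature. Strain, age and donor animals are not given in the labels, nor whether libraries of a group came from separate animals, so every p-value below measures the spread between libraries, which may be technical.

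Aurora kinases are serine/threonine kinases that drive chromosome segregation. Aurora A, the product of AURKA, works at spindle poles and microtubules, where it helps to build the meiotic spindle of the oocyte and is activated by TPX2 and BORA. Aurora B, the product of AURKB, is the enzymatic subunit of the chromosomal passenger complex, which sits on chromosomes and centromeres, frees wrongly attached kinetochores and later moves to the central spindle for polar body extrusion. In that complex INCENP is the scaffold, and survivin (BIRC5) and borealin (CDCA8) form the targeting module that docks it on centromeric chromatin. Aurora C is a germ-line relative that can take the place of aurora B in oocytes.

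On the UMD3.1 genome build, AURKA (ENSBTAG00000013009) spans 60092043 to 60107177 of chromosome 13. AURKB (ENSBTAG00000001717) spans 28447634 to 28452478 and BIRC5 (ENSBTAG00000013573) 54559538 to 54566816, both on chromosome 19. CDCA8 (ENSBTAG00000014326) spans 108785461 to 108800524 of chromosome 3. The gene lengths behind the deposited length-scaled values were 1932, 2093, 1651 and 2196 bases for AURKA, AURKB, BIRC5 and CDCA8. The 3 aurora kinase genes have similar kinase domains, and how reads that map to several places were counted is not given in the sources used here.

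Library totals ranged from 1601519 to 8569618 counts, and depth went with the coolant. The 6 helium libraries and nitrogen 6.6 M library 3 held more than 5000000 counts (6346848 to 8569618), and the other 8 libraries held 1601519 to 2822837. All 4 genes were well covered, with 5644 to 40306 counts per library for AURKA, 1414 to 9302 for CDCA8, 219 to 2270 for AURKB and 166 to 1378 for BIRC5. Oocyte marker transcripts (8 of 10 listed genes matched, among them GDF9, BMP15 and ZP2) summed to 3609.7 to 6252 CPM (a gene's counts relative to its library's total) in fresh libraries and 4563 to 7045 in vitrified ones, and none of the 8 was at 0 throughout. Of 14 cumulus and granulosa markers, FSHR was at 0 in all libraries, and the sums were 277 to 433 CPM in fresh, 300.5 to 334 in helium 5.6 M, 287 to 530.5 in helium 6.6 M, 309 to 329 in nitrogen 5.6 M and 295 to 309.9 in nitrogen 6.6 M libraries. Of 10 blood and immune markers 9 were matched, HBB, CD74 and CD14 were at 0 throughout, and the sums were 1.42 to 14.5 CPM. Both libraries highest in cumulus markers, helium 6.6 M library 2 and fresh library 2, recur below.

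AURKA was the most abundant of the 4 transcripts in every library and stood near the top of all genes. Per length, in FPKM (counts divided by both gene length and library total), it averaged 1810.5 ± 456 (SD, n = 3) in fresh oocytes and ranked between 27th and 69th of all genes in the 15 libraries, with a median rank of 38. CDCA8 followed at 514 ± 285.5 FPKM in fresh oocytes and ranks of 114 to 431. AURKB had 77.3 ± 22.9 FPKM and ranks of 830 to 1466, and BIRC5 had a mean of 84.3 FPKM (62.8 to 121 in the 3 fresh libraries) and ranks of 984 to 1493. AURKA took 0.260 to 0.560% of all counts of a library, so its share is large enough to be estimated with little counting error in the shallowest library as well. The order AURKA above CDCA8 above AURKB and BIRC5 held in all 15 libraries on the FPKM scale.

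**Figure D1:**
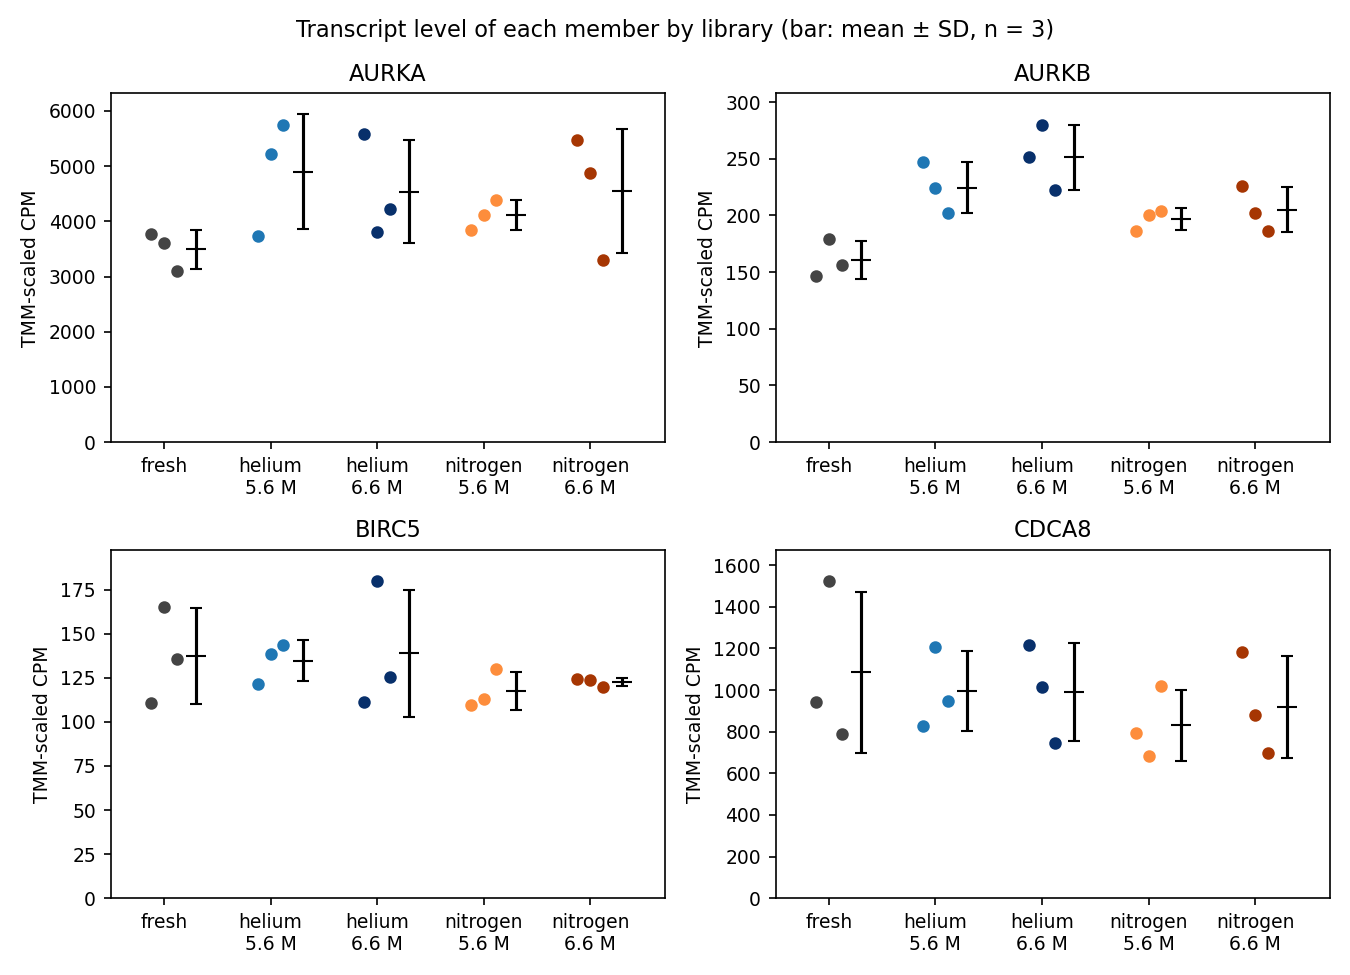
Transcript level of AURKA, AURKB, BIRC5 and CDCA8 on the y axis, in TMM-scaled CPM, for the 5 groups on the x axis. Each point is 1 library, and the bar is the mean ± SD of 3 libraries. All 12 vitrified libraries lie above the 3 fresh ones for AURKB, with 186 CPM in the lowest vitrified and 179 in the highest fresh library, while the groups overlap for BIRC5 and CDCA8.

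AURKB, the kinase of the passenger complex, was measured at a higher level in every vitrified library than in any fresh one, but the difference did not pass the test over all genes. Levels of 1 gene are given from here on in CPM corrected for composition by trimmed means of M-values (TMM-scaled CPM). Cell type markers are the exception and stay in CPM by library totals alone. In TMM-scaled CPM of AURKB, fresh libraries 1, 2 and 3 held 146, 179 and 156. Helium 5.6 M libraries 3, 4 and 5 held 247, 224 and 202, and helium 6.6 M libraries 1, 2 and 3 held 251, 279.6 and 223. The lowest helium value thus exceeded the highest fresh value. Nitrogen 5.6 M libraries 1, 2 and 3 held 186, 200.4 and 204, and nitrogen 6.6 M libraries 1, 2 and 3 held 226, 202 and 187. Nitrogen libraries lay between the fresh and most of the helium libraries and overlapped the latter. By groups the order of mean levels was fresh (161 ± 17.0), nitrogen 5.6 M (197 ± 9.48), nitrogen 6.6 M (205 ± 19.9), helium 5.6 M (224 ± 22.5) and helium 6.6 M (251 ± 28.4; SD, n = 3 each). Neighbours in this order overlapped, except that fresh lay wholly below nitrogen 5.6 M. Some other measures moved with this order. SERPINE2, on the list of cumulus and granulosa markers, was at 7.44 to 22.5 CPM in fresh, 19.7 to 22.7 in nitrogen 5.6 M, 18.8 to 28.8 in nitrogen 6.6 M, 23.9 to 41.2 in helium 5.6 M and 29.5 to 61.8 in helium 6.6 M libraries. SERPINE2 is named below for its likeness to AURKB, so its order follows from that choice. HAS2 and STAR, on the same list, did not rise with this order. HAS2 was at 117 to 126 CPM in fresh, 96.4 to 101 in helium 5.6 M and 83.5 to 113 in helium 6.6 M libraries. STAR was at 139.9 to 283, 149 to 175 and 158 to 191 CPM in the same groups. The sum of the matched oocyte markers was 3609.7 to 6252 CPM in fresh, 4563 to 5933 in nitrogen and 5997 to 7045 in helium libraries. Among them ZAR1, NLRP5 and KIT did not rise with this order. The mitochondrial share of counts was 4.14 to 8.66% in fresh, 2.41 to 6.29% in nitrogen and 2.79 to 4.21% in helium libraries. The part of cumulus cells, of oocyte marker levels and of the mitochondrial share in the AURKB difference was not tested. Depth differed too, at 1601519 to 2822837 counts in fresh and 6346848 to 8569618 in helium libraries. Helium and depth therefore cannot be told apart in comparisons with fresh oocytes.

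The question whether vitrification changed AURKB was tested with edgeR (quasi-likelihood F-test; p-values adjusted by Benjamini and Hochberg over 8441 genes, threshold 0.05). Over all vitrified against fresh libraries, AURKB was 1.36-fold higher (95% interval of the fold 1.11 to 1.65). Its log2 fold change was 0.44 (SE 0.14), with an adjusted p = 0.156 by edgeR and 12 of 12 vitrified libraries above the fresh ones. All vitrified libraries lay above all fresh ones for 111 genes, 1.32% of those tested. Against fresh, the log2 fold change was 0.48 (SE 0.17, edgeR adjusted p = 0.181) with helium 5.6 M and 0.64 (SE 0.17, edgeR adjusted p = 0.0779) with helium 6.6 M. It was 0.29 (SE 0.17, edgeR adjusted p = 0.787) with nitrogen 5.6 M and 0.35 (SE 0.17, edgeR adjusted p = 0.608) with nitrogen 6.6 M. In each of these 4 comparisons 3 of 3 vitrified libraries lay above all fresh ones, as was so for 9.36%, 8.06%, 5.24% and 5.27% of genes in the same order.

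Some settings ended or changed what was seen for AURKB. DESeq2 called it for all vitrified against fresh (log2 fold change 0.44, DESeq2 adjusted p = 0.0341) and for helium 6.6 M against fresh (0.64, DESeq2 adjusted p = 0.00446). Of 8441 genes, DESeq2 called 191 and 279 in the same order, where edgeR called 43 and 53. Without fresh library 2, edgeR called it with helium 6.6 M (0.71, adjusted p = 0.0241), against an adjusted p of 0.0714 for all vitrified libraries. In that fit edgeR called 598 of 9610 genes with helium 6.6 M, against 53 of 8441 with all libraries, so the rise in calls was not particular to AURKB. In CPM by library totals alone, fresh library 2 held 217 and only 6 of 12 vitrified libraries exceeded it, so the separation from all fresh libraries depends on the composition factor, which was 1.22 for that library. With totals alone the log2 fold change was still 0.44 (edgeR adjusted p = 0.303). Within the 8 shallower libraries, 5 nitrogen against 3 fresh, it was 0.35 (SE 0.19, edgeR adjusted p = 0.971).

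AURKA, the spindle pole kinase, also had higher mean levels in every vitrified group than in fresh oocytes, with more overlap. Fresh libraries 1, 2 and 3 held 3769, 3608 and 3098 TMM-scaled CPM. Helium 5.6 M libraries 3, 4 and 5 held 3737, 5223 and 5741, and helium 6.6 M libraries 1, 2 and 3 held 5589, 3803 and 4228. The lowest helium library lay among the fresh ones. Nitrogen 5.6 M libraries 1, 2 and 3 held 3839, 4113 and 4387, and nitrogen 6.6 M libraries 1, 2 and 3 held 5465, 4869 and 3293. Above all fresh libraries were 10 of 12 vitrified ones, the exceptions being helium 5.6 M library 3 and nitrogen 6.6 M library 3. The share of all genes with 10 of 12 above was not computed. In CPM by library totals alone the count was 5 of 12. Group means were 3492 ± 350.3 in fresh, 4113 ± 274 in nitrogen 5.6 M, 4539.9 ± 933 in helium 6.6 M, 4543 ± 1122 in nitrogen 6.6 M and 4900.35 ± 1039.9 in helium 5.6 M oocytes (SD, n = 3 each). All neighbours in this order overlapped except fresh and nitrogen 5.6 M. All 3 libraries of nitrogen 5.6 M and of helium 6.6 M lay above all fresh ones, as was so for 5.24% and 8.06% of genes.

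Over all vitrified libraries the AURKA difference was 1.29-fold (95% interval 0.982 to 1.70). The log2 fold change was 0.37 (SE 0.19, edgeR adjusted p = 0.405). For single groups against fresh it was 0.49 with helium 5.6 M (edgeR adjusted p = 0.354), 0.38 with helium 6.6 M (0.477), 0.24 with nitrogen 5.6 M (0.883) and 0.38 with nitrogen 6.6 M (0.726). None of these passed. The value within the 8 shallower libraries was 0.40 (SE 0.24, edgeR adjusted p = 0.993).

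Of the 2 subunits that target the complex to centromeres, neither passed the test against fresh oocytes in any group. Survivin transcripts (BIRC5) were at 111, 165 and 136 TMM-scaled CPM in fresh libraries 1, 2 and 3. They were at 121, 139 and 144 in helium 5.6 M libraries 3, 4 and 5, and at 112, 179.8 and 125 in helium 6.6 M libraries 1, 2 and 3. Fresh and helium libraries overlapped over most of their range. They were at 109.7, 113 and 130.0 in nitrogen 5.6 M libraries and at 124, 123 and 119.8 in nitrogen 6.6 M libraries 1, 2 and 3. Group means lay between 118 ± 10.9 (nitrogen 5.6 M) and 139 ± 36.1 (helium 6.6 M), with 122 ± 2.28 in nitrogen 6.6 M, 135 ± 11.7 in helium 5.6 M and 137 ± 27.3 in fresh oocytes between them (SD, n = 3 each), and no neighbours in this order were separated. The log2 fold change over all vitrified libraries was -0.10 (95% interval -0.43 to 0.23, edgeR adjusted p = 0.848). Against fresh it was -0.03 with 5.6 M and 0.01 with 6.6 M in helium (edgeR adjusted p = 0.960 and 0.987), and -0.23 and -0.17 in nitrogen (edgeR adjusted p = 0.861 and 0.886).

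The highest BIRC5 values belonged to helium 6.6 M library 2 and fresh library 2, which also had the highest sums of cumulus and granulosa markers, at 530.5 and 433 CPM against 277 to 334 in the other 13 libraries. In helium 6.6 M library 2, 129.6 CPM of this sum came from TIMP1 and 30.8 from TNFAIP6, which reached at most 1.25 and 1.82 CPM in fresh libraries, where the sum was mostly STAR (139.9 to 283 CPM) and HAS2 (117 to 126 CPM). GREM1 and AMH were at 0 in all fresh libraries. Blood and immune markers were also highest in helium 6.6 M library 2, at 14.5 CPM. The part of other cells in the BIRC5 level was not tested, and in such data fewer cells of a type and less RNA per cell cannot be told apart. Without both libraries the BIRC5 log2 fold change over all vitrified libraries was -0.01 (edgeR adjusted p = 0.979), and it was 0.04 without fresh library 2 alone.

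Borealin transcripts (CDCA8) varied widely between libraries of the same group. Fresh libraries 1, 2 and 3 held 944, 1523 and 789 TMM-scaled CPM. Helium 5.6 M libraries 3, 4 and 5 held 827, 1205 and 949, and helium 6.6 M libraries 1, 2 and 3 held 1216, 1013 and 744. The highest value of all 15 was that of fresh library 2. Nitrogen 5.6 M libraries 1, 2 and 3 held 795, 681 and 1017, and nitrogen 6.6 M libraries 1, 2 and 3 held 1182, 878 and 697. All groups overlapped, with coefficients of variation of 35.6% in fresh and 19.4 to 26.7% in vitrified groups. The mean was 1085 ± 387 in fresh oocytes, 994 ± 193 in helium 5.6 M, 991 ± 237 in helium 6.6 M, 919 ± 245 in nitrogen 6.6 M and 831 ± 171 in nitrogen 5.6 M (SD, n = 3 each).

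The CDCA8 log2 fold change over all vitrified libraries was -0.22 (95% interval -0.65 to 0.21, edgeR adjusted p = 0.713), and its sign rested on fresh library 2, since it was 0.09 without it. For single groups against fresh it was -0.13 with helium 5.6 M, -0.13 with helium 6.6 M, -0.39 with nitrogen 5.6 M and -0.24 with nitrogen 6.6 M (edgeR adjusted p = 0.878, 0.881, 0.825 and 0.881). Without fresh library 2 these became 0.19, 0.17, -0.08 and 0.07.

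**Figure D2:**
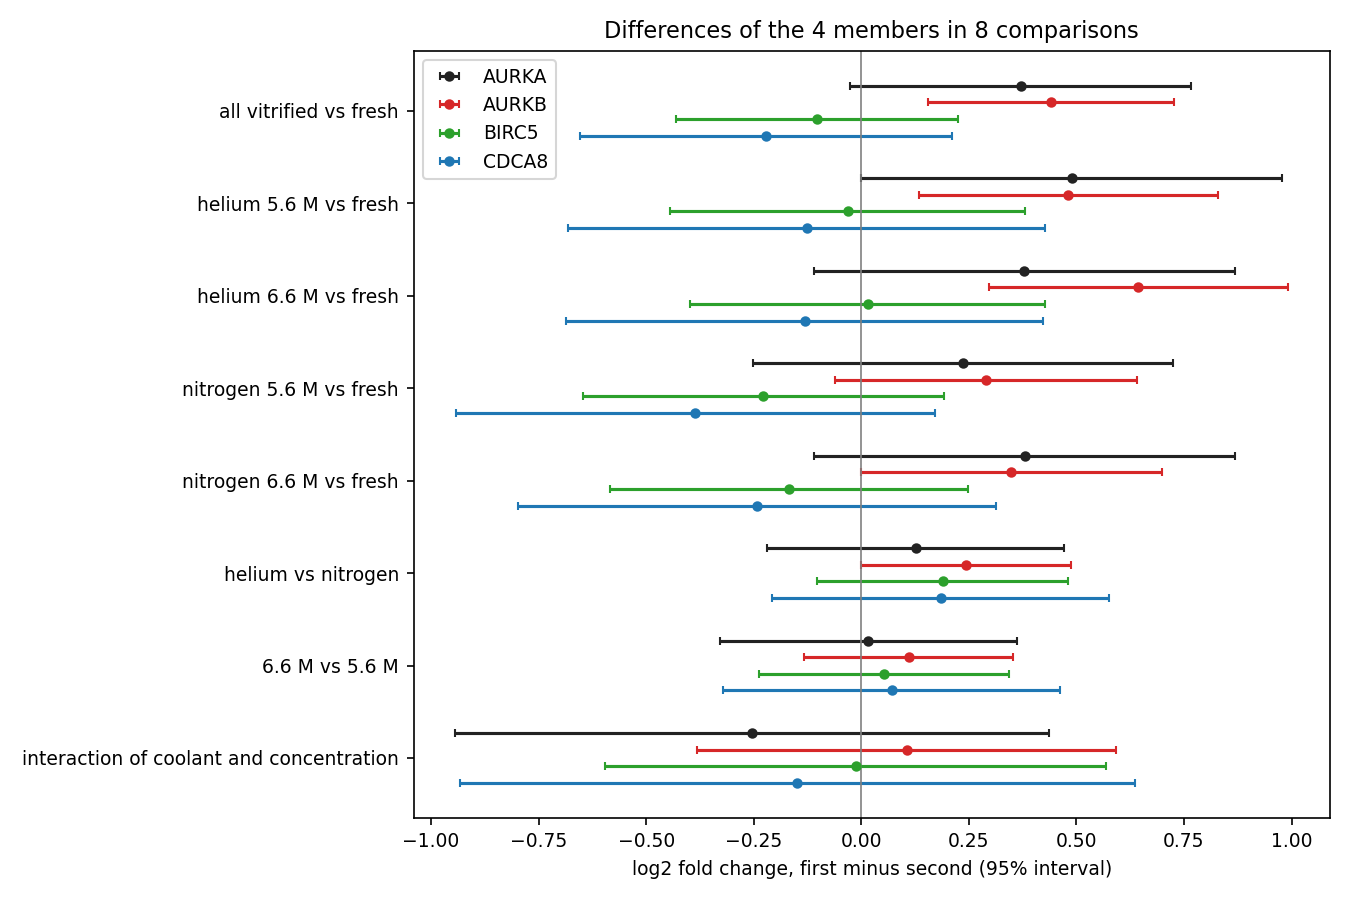
Log2 fold change (x axis) of AURKA, AURKB, BIRC5 and CDCA8 in the 8 comparisons on the y axis, from edgeR. Points are estimates and bars 95% intervals, not adjusted for the number of genes. AURKB lies above 0 in every comparison, from 0.11 for the interaction to 0.64 for helium 6.6 M against fresh, with intervals that include 0 in 5 of 8, and the intervals of AURKA, BIRC5 and CDCA8 include 0 in all 8.

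Across all comparisons with fresh oocytes, 0 of the 4 genes passed edgeR's test, against a background of 0.509% of genes called for all vitrified libraries, 0.474% for helium 5.6 M, 0.628% for helium 6.6 M, 0.0118% for nitrogen 5.6 M and 0.0474% for nitrogen 6.6 M. At an unadjusted p under 0.05, edgeR had 1 of the 4 genes, AURKB, over all vitrified libraries (13.6% of all genes), with helium 5.6 M (14.1%) and with helium 6.6 M (15.4%). It had 0 of 4 with nitrogen 5.6 M (6.74%) and nitrogen 6.6 M (8.23%). DESeq2 called AURKB over all vitrified libraries (191 of all 8441 genes called) and with helium 6.6 M (279 of 8441). It called 0 of 4 in the other comparisons with fresh. A count of 0 of 4 cannot be told from background shares this small. The median log2 fold change of the 4 was 0.13, beside -0.03 over all 8441 genes. The 5 comparisons with fresh oocytes share the same 3 control libraries, so a high or low fresh library moves all of them together.

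The coolant was compared next, helium against nitrogen over both concentrations (6 libraries each). Each of the 4 genes had a higher mean with helium, and 0 of 4 passed, where 0.663% of genes were called. At an unadjusted p under 0.05 edgeR had 0 of 4, beside 16% of all genes, and DESeq2 called 0 of 4. AURKB stood at 238 ± 27.2 TMM-scaled CPM with helium and 201 ± 14.7 with nitrogen (SD, n = 6 each), a log2 fold change of 0.24 (SE 0.12, edgeR adjusted p = 0.313) with 3 of 6 helium libraries above all nitrogen ones. BIRC5 stood at 137 ± 24.1 and 120.0 ± 7.55, a log2 fold change of 0.19 (SE 0.14, edgeR adjusted p = 0.514), which was 0.08 without the 2 libraries highest in cumulus markers. For CDCA8 it was 0.18 (SE 0.19, edgeR adjusted p = 0.654) and for AURKA 0.13 (SE 0.17, edgeR adjusted p = 0.743). Helium libraries were deeper, and coolant and depth cannot be told apart. The 1 deep nitrogen library, nitrogen 6.6 M library 3, was lower than each of the 6 helium libraries in AURKB (187 TMM-scaled CPM), AURKA (3293) and CDCA8 (697), but its BIRC5 level of 119.8 lay above that of helium 6.6 M library 1. Nitrogen libraries ranged from 186 to 226 in AURKB, 3293 to 5465 in AURKA and 681 to 1182 in CDCA8. This library was thus also at or near their low end, and the part of depth was not tested.

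The concentration of the cryoprotectant was compared over both coolants. Between 6.6 M and 5.6 M, log2 fold changes were 0.11 for AURKB (95% interval -0.13 to 0.35), 0.07 for CDCA8 (-0.32 to 0.46), 0.05 for BIRC5 (-0.24 to 0.34) and 0.02 for AURKA (-0.33 to 0.36). None of the 4 passed (edgeR adjusted p = 1.00 each), and 0% of all genes did (2.24% at an unadjusted p under 0.05; 0 genes by DESeq2). Mean AURKA levels were nearly equal, at 4541 ± 923 and 4507 ± 805 TMM-scaled CPM (SD, n = 6 each). The interaction, which asks whether the step in concentration differed between helium and nitrogen, gave -0.25 for AURKA, 0.11 for AURKB, -0.01 for BIRC5 and -0.15 for CDCA8, with intervals that all included 0. Of the 8441 genes 0% passed it (2.1% at an unadjusted p under 0.05; 0 genes by DESeq2).

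Ratios between genes within a library need no scaling between libraries, and are given as FPKM ratios. In fresh libraries 1, 2 and 3 the ratio of AURKB to BIRC5 was 1.04, 0.856 and 0.909. In the 12 vitrified libraries it ran from 1.11 over a median of 1.31 to 1.78, so all 12 lay above all 3 fresh ones. AURKB and BIRC5 transcripts were thus close to equal per length in fresh oocytes (0.935 ± 0.0951, SD, n = 3), and AURKB was above BIRC5 in vitrified ones (1.36 ± 0.183, n = 12). The ratio of helium libraries (1.40 ± 0.251, n = 6) overlapped that of nitrogen libraries (1.32 ± 0.0860, n = 6). The ratio was examined after its values were seen, and no test is attached to it. The share of other gene pairs whose ratio separates in this way was not computed. AURKB alone already separated the same libraries in TMM-scaled CPM, so the ratio is not independent of that separation.

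CDCA8 to AURKB had a ratio of 6.15, 8.09 and 4.81 in fresh libraries 1, 2 and 3. In vitrified libraries it ran from 3.18 over a median of 4.11 to 5.12, so that fresh library 3 lay inside the vitrified range and the other two above it. AURKA to AURKB, the 2 kinases, was 27.9, 21.8 and 21.5 in fresh libraries 1, 2 and 3 and ran from 14.7 over a median of 22.8 to 30.8 in vitrified ones. These ranges overlapped throughout. CDCA8 to BIRC5, the 2 targeting subunits, was 4.37 to 6.92 in fresh and 4.24 to 8.20 in vitrified libraries, again without separation.

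**Figure D3:**
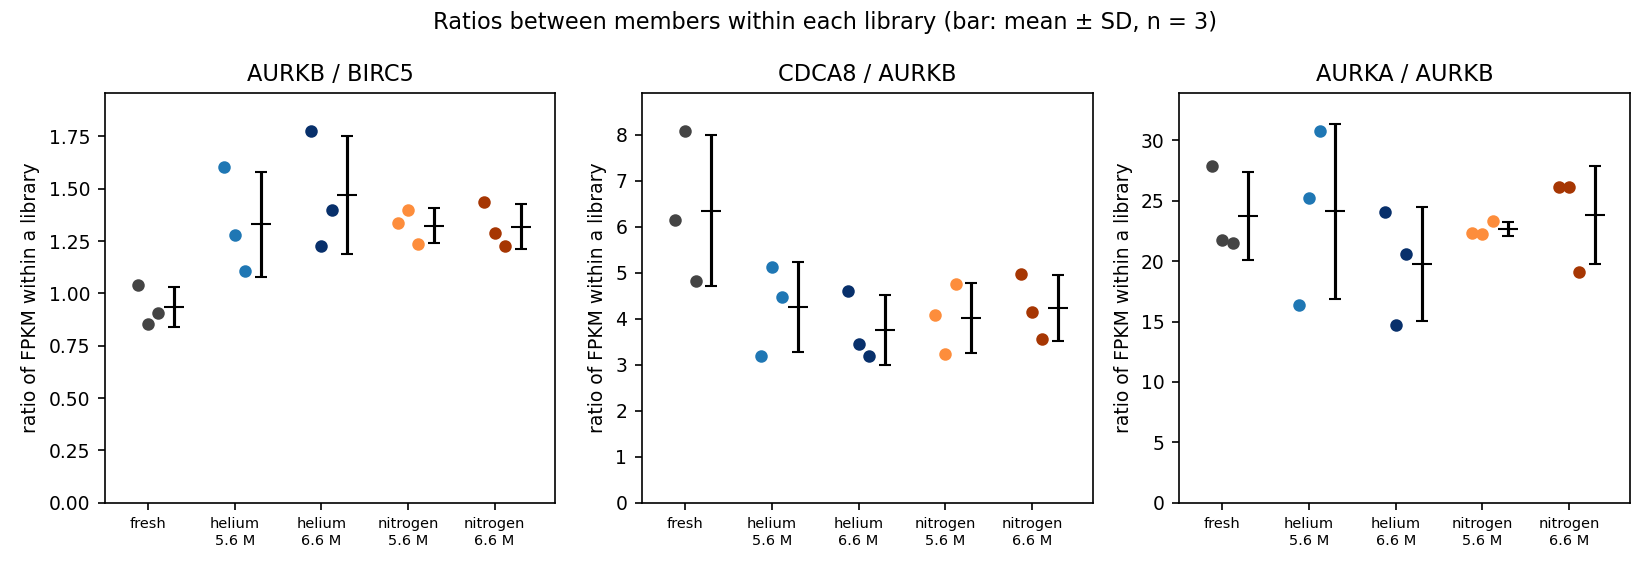
FPKM ratios within each library (y axis) for AURKB to BIRC5, CDCA8 to AURKB and AURKA to AURKB, by group on the x axis. Points are libraries and bars the mean ± SD of 3. The AURKB to BIRC5 ratio is 0.856 to 1.04 in fresh and 1.11 to 1.78 in vitrified libraries.

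How far the 4 transcripts varied together was asked over the 15 libraries, in log2 TMM-scaled CPM. Of the 6 pairs, Pearson's r was highest for BIRC5 and CDCA8 (r = 0.463, permutation p = 0.0832; Spearman's rho = 0.400, permutation p = 0.141; adjusted p = 0.248 and 0.283 over 6 pairs). Without helium 6.6 M library 2 and fresh library 2 this r was 0.218. Within the 7 deeper libraries it was 0.210 and within the 8 shallower ones 0.728, so this relation rests on few libraries. AURKA and AURKB had r = 0.454 (permutation p = 0.0884; rho = 0.518, permutation p = 0.0505; adjusted p = 0.248 and 0.283), with 0.432 after the 2 libraries farthest from the AURKA median were left out, 0.827 within the shallower and 0.0238 within the deeper libraries. AURKA and CDCA8 had r = 0.416 (permutation p = 0.124; rho = 0.418, permutation p = 0.123; adjusted p = 0.248 and 0.283), with 0.368 after leaving out 2 libraries, 0.729 within the deeper and 0.177 within the shallower ones. The other 3 pairs had r between -0.091 and 0.261, and 0 of 6 passed the adjustment. With group means removed, r was -0.00 for AURKA and AURKB, 0.62 for AURKA and CDCA8, 0.57 for AURKB and CDCA8, 0.50 for AURKB and BIRC5, 0.37 for BIRC5 and CDCA8 and -0.11 for AURKA and BIRC5.

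By the rule for naming genes of like pattern, the 3 tested genes with the highest Pearson's r over the 15 libraries were taken for each member out of 8441, as a description. AURKB varied most like RPN2 (r = 0.915, rho = 0.793), GEMIN8 (0.898, 0.821) and SERPINE2 (0.889, 0.829). SERPINE2 is a protease inhibitor that is on the list of granulosa markers. AURKA varied most like EZR, which links actin to the membrane (r = 0.901, rho = 0.836), SAFB (0.835, 0.829) and UBTF (0.823, 0.746). BIRC5 varied most like MIS18A, a factor of centromere assembly (0.878, 0.811), PARP16 (0.876, 0.829) and DDX39B (0.871, 0.818), and CDCA8 most like WNK1 (0.915, 0.914), CDH3 (0.914, 0.818) and TRIM28 (0.913, 0.875). With group means removed, r in the same order of genes was 0.732, 0.644 and 0.582 for AURKB and 0.911, 0.778 and 0.732 for AURKA. It was 0.910, 0.887 and 0.850 for BIRC5 and 0.904, 0.934 and 0.911 for CDCA8. All these values share the same libraries, depth and scaling factors.

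Partners of the kinases were described by 5 gene lists, ordered by role, for all vitrified against fresh oocytes. Of 18 activators and spindle partners of aurora A, 15 were tested and 0 passed in any of the 8 comparisons. The list's median was 0.05 on the log2 scale and 9 of 15 lay above 0, beside -0.03 and 46.5% above 0 over all genes. The activator TPX2 stood at 681 ± 150.4 in fresh and 705 ± 99.3 TMM-scaled CPM in vitrified oocytes, and BORA at 312 ± 96.2 and 316 ± 52.1. PLK1, the kinase that BORA helps aurora A to activate, stood at 32.1 ± 22.0 and 36.0 ± 9.08 (SD, n = 3 and 12). The smallest p belonged to CEP192, a centrosome scaffold, with a log2 fold change of -0.30 (SE 0.14, edgeR adjusted p = 0.357).

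Of 11 genes that bring the passenger complex to centromeres, 9 were tested and 0 passed in any comparison, at a median of 0.17 with 8 of 9 above 0. VRK1, a kinase of chromatin, had the smallest p, at 987 ± 281 in fresh and 1644 ± 206 TMM-scaled CPM in vitrified oocytes (log2 fold change 0.73, SE 0.18, edgeR adjusted p = 0.0818). For VRK1 12 of 12 vitrified libraries lay above all fresh ones, as was so for 1.32% of genes. BUB1, the kinase that marks histone H2A at centromeres, had 0.29 (edgeR adjusted p = 0.394). The shugoshin genes SGO1 and SGO2 had 0.14 and 0.02, and GSG2, which encodes haspin, the histone H3 kinase to whose mark survivin binds, had 0.01.

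Of 21 substrates of aurora B and C, 15 were tested and 0 passed in any comparison, at a median of 0.04 with 8 of 15 above 0. SPC25, a kinetochore subunit of the NDC80 complex, stood at 309 ± 128 in fresh and 541 ± 119 TMM-scaled CPM in vitrified oocytes (log2 fold change 0.79, SE 0.21, edgeR adjusted p = 0.0905; 10 of 12 above all fresh ones). KIF2C, the microtubule depolymerase at centromeres, had 0.33 and NDC80 0.27 (edgeR adjusted p = 0.357 and 0.570). Of 12 genes of the central spindle and cytokinesis 10 were tested and 0 passed in any comparison, at a median of 0.02 with 5 of 10 above 0. ECT2, the activator of RhoA, had the smallest p (-0.36, SE 0.18, edgeR adjusted p = 0.391). The kinesin gene KIF20A, whose product carries the passenger complex to the central spindle, had -0.15.

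Phosphatases that oppose aurora kinases, and ubiquitin enzymes that remove them, were the list farthest from the median of all genes. Of 28 genes 17 were tested, and 15 of 17 lay below 0 at a median of -0.30. Over all genes the median was -0.03, with 46.5% above 0. The list was chosen with earlier results of these data known. Over all vitrified libraries 1 of the 17 was called as higher and 0 as lower, where 0.509% of all genes were called. The 1 was UBE2C, which passes ubiquitin to substrates of the anaphase-promoting complex (log2 fold change 1.08, SE 0.19, edgeR adjusted p = 0.0179). UBE2C stood at 334 ± 103 in fresh and 705 ± 86.1 TMM-scaled CPM in vitrified oocytes. For UBE2C 12 of 12 vitrified libraries lay above all fresh ones, as was so for 1.32% of genes. UBE2C also rose with helium at 5.6 M (1.05, edgeR adjusted p = 0.0402) and 6.6 M (0.99, edgeR adjusted p = 0.0444). With nitrogen the log2 fold changes were as large, at 1.07 with 5.6 M (edgeR adjusted p = 0.167) and 1.19 with 6.6 M (edgeR adjusted p = 0.0529), and helium against nitrogen gave -0.11 (edgeR adjusted p = 0.763). With helium 6.6 M, PPP2CB, a catalytic subunit of protein phosphatase 2A, fell from 78.7 ± 26.3 to 33.3 ± 6.60 TMM-scaled CPM (log2 fold change -1.25, SE 0.28, edgeR adjusted p = 0.0444), with all 3 helium libraries (27.4 to 40.4) below all fresh ones (62.8 to 109), as was so for 8.25% of genes. With the replicate number as a block, in a fit that leaves out helium 5.6 M, neither passed in helium 6.6 M (edgeR adjusted p = 0.0882 for UBE2C and 0.0900 for PPP2CB). In the same libraries without the block neither passed either (edgeR adjusted p = 0.112 and 0.0746). All helium libraries were deeper than all fresh ones, so helium and depth cannot be told apart for UBE2C and PPP2CB here.

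Those calls depended on the settings and on which libraries were in the fit. PPP2CB did not pass by limma on log2 FPKM (adjusted p = 0.0825 and 0.0861 with pseudocounts of 1 and 0.1) or by library totals alone (edgeR adjusted p = 0.0873), and UBE2C in helium 6.6 M did not pass with RLE size factors (edgeR adjusted p = 0.0505). In fits of only the groups compared, neither passed in helium (edgeR adjusted p = 0.229 for UBE2C with 5.6 M, 0.349 for UBE2C and 0.255 for PPP2CB with 6.6 M). Each of the 15 libraries was also left out in turn, which gave 15 fits. The UBE2C call over all vitrified libraries was lost in 1 of these 15 fits (without fresh library 1, 1.20, edgeR adjusted p = 0.0594). It was also lost in the 8 shallower libraries (1.11, edgeR adjusted p = 0.297). With 1 library left out, the UBE2C call with helium 5.6 M was lost in 10 of 15 fits and with helium 6.6 M in 13 of 15. Its log2 fold change stayed between 0.73 and 1.24. The PPP2CB call was lost in 11 of 15, with values from -1.42 to -0.93. KLHL21, an adaptor of the ubiquitin ligase that removes aurora B from chromosomes, had the lowest log2 fold change of the list at -1.15 (SE 0.37, edgeR adjusted p = 0.172) at a low level of 5.93 ± 1.67 in fresh and 2.81 ± 1.22 TMM-scaled CPM in vitrified oocytes. PPP1CB and PPP1CC, catalytic subunits of protein phosphatase 1, had -0.35 and -0.30 (edgeR adjusted p = 0.390 and 0.434), and PPP2CA, the other catalytic subunit of phosphatase 2A, had 0.19 (0.658).

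**Figure D4:**
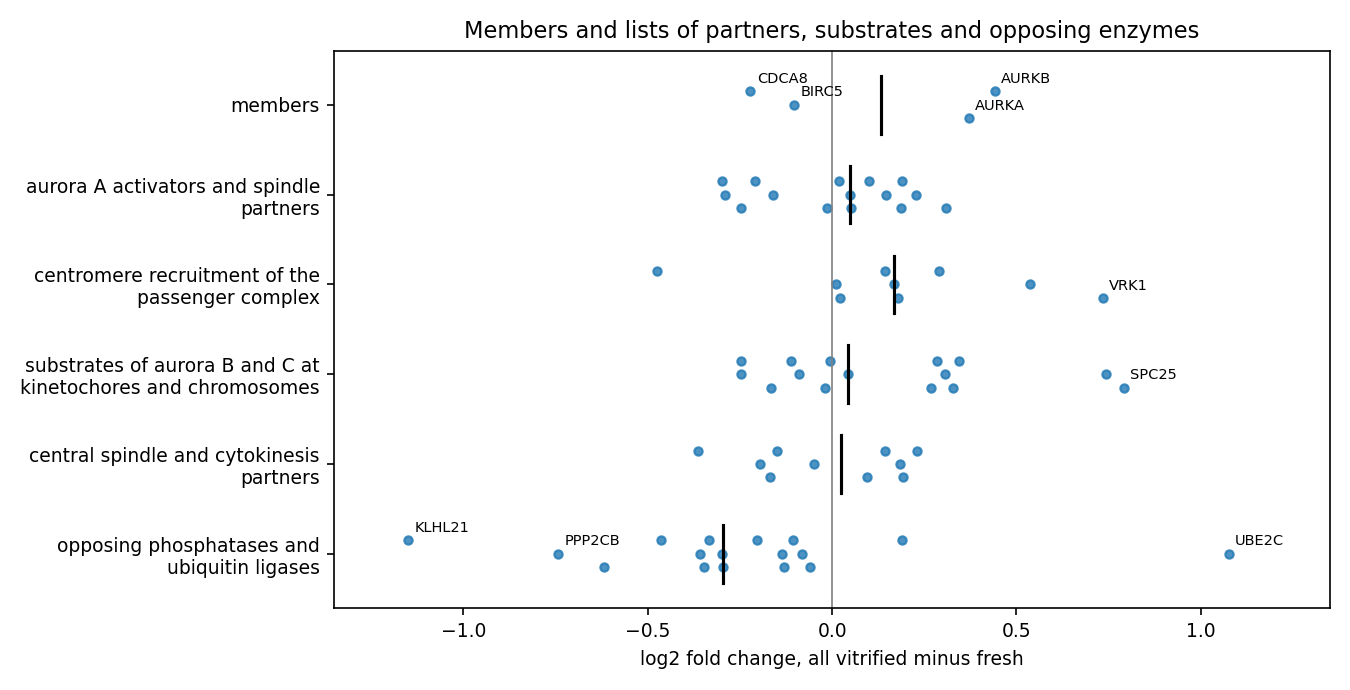
Log2 fold change, all vitrified minus fresh (x axis), of the 4 members and of 5 lists of partners, substrates and opposing enzymes (y axis). Each point is 1 gene and the black line the median of a list. UBE2C at 1.08 is the 1 gene here that passed the test over all genes, and 15 of 17 opposing enzymes lie below 0.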

How the data were processed

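RNA sequencing libraries of bovine oocytes (5 groups of 3) were taken from 1 table. The tools HISAT2 2.0.4 and StringTie 1.3.0 and the build UMD3.1 are named in the submitters' processing notes without a role. The authors deposited whole-number counts per gene, per the file headers, and beside them FPKM values, which equal the deposited count over gene length and library total within 0.1% for all 180473 values above 0. SMARTer kits for single cells gave the cDNA, per the labels' protocols. Whether counting used the strand is not given in the sources used here.

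Counts were tested in R 4.3.3 with edgeR 4.0.16: filterByExpr by group (8441 genes), TMM scaling, and 1 robust quasi-likelihood fit of all 15 libraries by group, with 8 contrasts and Benjamini-Hochberg adjustment over all genes at 0.05. Standard errors and 95% intervals come from that fit. Alternatives were RLE scaling, DESeq2 1.42.0, other filters, limma 3.58.1 on log2 FPKM with pseudocounts of 1 and 0.1, fits of fewer libraries and a replicate block. Like patterns used log2 CPM with a prior count of 2, and correlations 100000 permutations, two-sided. The code was tested on simulated data. The members and gene lists were chosen with earlier results of these data known. All matched members were named, and of each partner list every gene that passed, or otherwise the gene with the smallest p. Other partner genes (TPX2, BORA, PLK1, BUB1, SGO1, SGO2, GSG2, KIF2C, NDC80, KIF20A, KLHL21, PPP1CB, PPP1CC and PPP2CA, and VRK1 and SPC25 in further detail) were named for their role after values were seen. Deviations from group means correlated over 0.1 in each same-number pair of helium 6.6 M and fresh (0.147, 0.306 and 0.227). Other pairs of groups were mixed in sign, such as fresh and nitrogen 6.6 M (-0.129, -0.198 and 0.431). Libraries with different numbers were not compared, and the labels name no pairing, so these values do not establish one. Counts of 2 libraries of 1 group gave a chi-square of at least 5.52 per degree of freedom, so none was treated as a copy of another.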

Additional observations from a re-analysis of the deposited data

How the results depend on the processing

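Each of the 4 genes had 203 values of its log2 fold change under other settings. AURKB kept its sign in 203 of them, AURKA in 198, CDCA8 in 188 and BIRC5 in 179. Members called were 1 in place of 0 under DESeq2 for all vitrified and for helium 6.6 M against fresh, and 0 to 1 for the latter with 1 library left out at a time. With the replicate block AURKB had 0.43 over the vitrified groups other than helium 5.6 M (edgeR adjusted p = 0.341) and 0.64 with helium 6.6 M (edgeR adjusted p = 0.157). The block changed no member's call, and UBE2C over those vitrified groups had an adjusted p of 0.0598 by edgeR with it and 0.0842 without it. Signs turned as follows, and the cause was not tested. BIRC5 with helium 5.6 M against fresh was 0.0135 without a filter and 0.0412 and 0.0423 by limma (pseudocounts 1 and 0.1). For the interaction it was 0.0112 with the strict filter (at least 10 counts in 12 libraries), 0.0201 with only the groups compared and 0.0339 with library totals alone. Without both libraries highest in cumulus markers, chosen after seeing the data, CDCA8 was 0.0922 for all vitrified, 0.19 for helium 5.6 M, 0.17 for helium 6.6 M and 0.0762 for nitrogen 6.6 M against fresh, and BIRC5 was 0.12 with helium 5.6 M, -0.0638 with helium 6.6 M and -0.0595 for 6.6 M against 5.6 M. With 1 library left out, BIRC5 ran from -0.19 to 0.0377 (all vitrified), -0.14 to 0.11 (helium 5.6 M), -0.22 to 0.15 (helium 6.6 M), -0.0615 to 0.12 (concentration) and -0.24 to 0.12 (interaction). CDCA8 ran from -0.39 to 0.0891, -0.29 to 0.19, -0.31 to 0.17, -0.0400 to 0.15 and -0.33 to 0.0911 in the same order, and -0.46 to 0.0748 with nitrogen 6.6 M. AURKA ran from -0.0724 to 0.11 for concentration. All-gene counts called by edgeR moved more. For all vitrified, 43 became 191 by DESeq2, 142 without a filter, 70 by limma, 1 with the block (3 without it in the same libraries), 1 in the shallower libraries and 262 without both libraries, with 5 to 243 leaving out 1. In the same order of tools, helium 5.6 M (40) had 244, 160, 5 in a fit of its own groups, 536 without both libraries, and 1 to 431. Helium 6.6 M (53) had 279, 239, 2 in a fit of its own groups, 3 with the block (9 without it in the same libraries), 249 without both libraries, 33 by totals alone, and 3 to 598. Nitrogen 5.6 M (1) had 32, 26, 7 and 8 by limma, 6 by totals alone, and 1 to 3. Nitrogen 6.6 M (4) had 69, 60, 13 and 7 by limma, 1 in a fit of its own groups, 1 with the block, 1 in the shallower libraries, 12 by totals alone, and 1 to 23. Helium against nitrogen (56) had 269, 344, 24 and 25 by limma, 308 in a fit of its own groups, 217 without both libraries, 274 in the deeper ones, 27 by totals alone, and 15 to 234. Without a filter 3 genes passed for concentration and 2 for the interaction. By totals alone the split of higher and lower calls was 31 and 10 for all vitrified (23 and 20 with TMM), 22 and 12 for helium 5.6 M (16 and 24) and 23 and 10 for helium 6.6 M (31 and 22). The median of all genes for helium against nitrogen was 0.03 with TMM. It was 0.125 by library totals alone and 0.117 and 0.14 by limma with pseudocounts of 1 and 0.1.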
